A study of Mus musculus with 8 samples.

Results

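The Hox genes were taken as every symbol made of Hox, a cluster letter from a to d and a number, which gave 39 of the 23238 symbols in the count tables. They were measured in ribosome-bound RNA of lung endothelial cells from C57BL/6J mice, in 4 control libraries and 4 libraries from mice whose endothelial Sox17 was deleted by tamoxifen and that were kept in hypoxia. All mice carried Cdh5-CreERT2, a tamoxifen-inducible recombinase driven by the VE-cadherin promoter, and RPL22tm1.1Psam (RiboTag), which tags the ribosomal protein RPL22 with haemagglutinin in cells where the recombinase acts. The deleted mice carried Sox17fl/fl as well. Both groups received 2 mg of tamoxifen on 5 days at 8 weeks of age, and from 10 weeks of age the controls spent 3 weeks in room air and the deleted mice 3 weeks in hypoxia, whose oxygen level the labels do not give. The controls had neither the Sox17fl/fl allele nor hypoxia, so the parts of genotype and oxygen in any difference cannot be told apart. Below, the groups are called control and hypoxic Sox17-deleted.

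Hox genes encode homeodomain transcription factors that lie in clusters on separate chromosomes and carry numbers, from the 3′ end of a cluster to its 5′ end, that match across clusters as paralogue groups. Low-numbered genes are active in anterior parts of the embryo and high-numbered genes in posterior parts, and adult cells keep part of the code of the region they came from. The lung lies in the domain of low-numbered genes, among which Hoxa5 is known for its need in lung development.

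In these tables cluster A (chromosome 6, 52155590 to 52260880, minus strand) had 11 members, cluster B (chromosome 11, 96194316 to 96368256, plus strand) 10, cluster C (chromosome 15, 102921103 to 103036852, plus strand) 9 and cluster D (chromosome 2, 74668310 to 74765142, plus strand) 9, with positions from GENCODE M21 on GRCm38, the assembly also called mm10. Levels are given as CPM, counts scaled to a library total of 1000000. The libraries held between 7000313 and 12913304 counts, and 3 counts, taken as the smallest level set apart from 0, were worth 0.232 to 0.429 CPM. Libraries were made with a 3′ tag kit, in which a transcript gives about the same number of fragments whatever its length, so CPM values were compared between genes without division by length. Fewer genes were detected in hypoxic Sox17-deleted libraries (8019 to 8708) than in controls (9821 to 10429). Sox17 itself stood at 235 ± 39.2 CPM in controls and 11.1 ± 17.1 CPM in hypoxic Sox17-deleted libraries (SD, n = 4), and its counts in the latter were 473, 31, 6 and 41; the labels do not say which exons the deletion removes, so whether the 3′ tags lie in the deleted part is not known. The 10 endothelial markers, none of them at 0 over all libraries, summed to 7688 to 8108 CPM in controls and 5658 to 9345 CPM in hypoxic Sox17-deleted libraries.

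Of the 39 Hox genes, 20 had no count in any library, 7 never exceeded 2 counts, and 12 reached at least 100 counts in a library. No member had a highest count in between. The 12 were Hoxa2, Hoxa3, Hoxa4, Hoxa5 and Hoxa7 of cluster A, Hoxb2, Hoxb3, Hoxb4, Hoxb5 and Hoxb7 of cluster B, and Hoxd8 and Hoxd9 of cluster D. In cluster C no gene passed 2 counts in a library, and 7 of its 9 members had 0 in every library. The RNA of every member numbered 10 or higher stayed at 2 counts or fewer, which was under the 3-count floor.

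**Figure D1:**
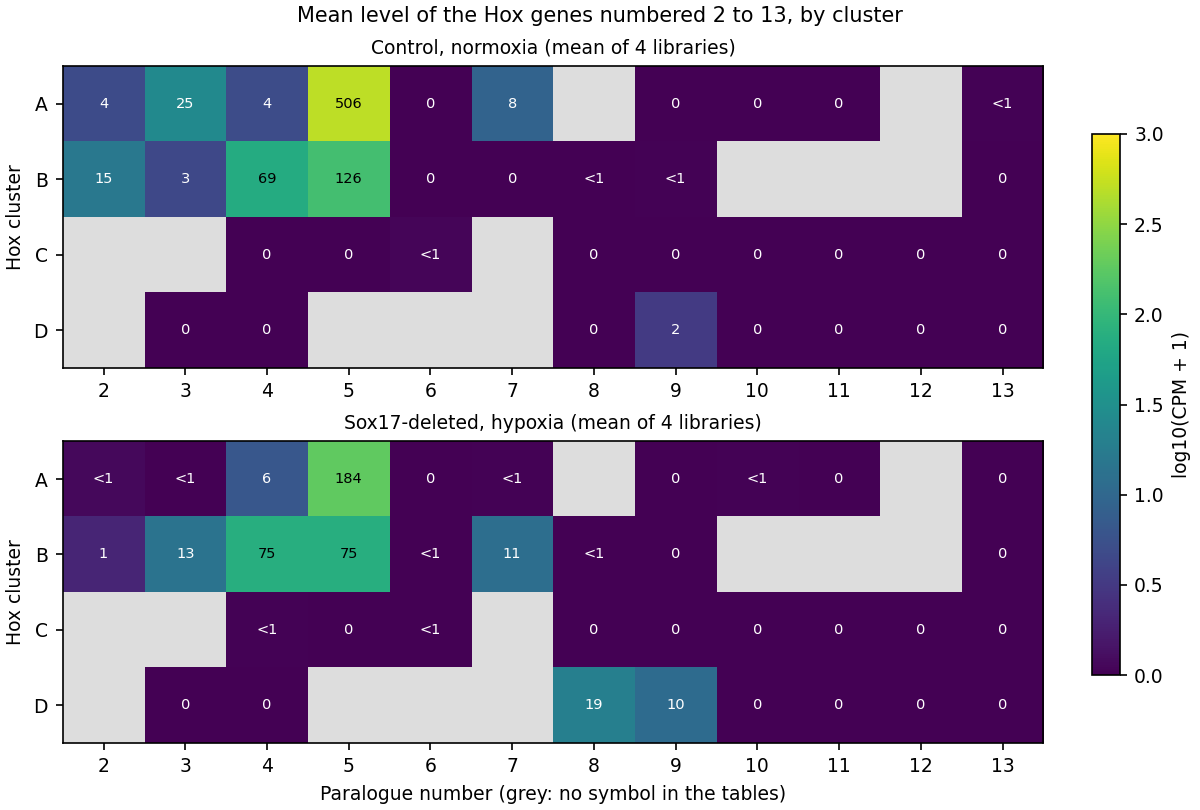
Mean CPM of library total for the Hox genes numbered 2 to 13 in controls (top) and hypoxic Sox17-deleted libraries (bottom), with clusters as rows, paralogue numbers as columns and colour as log10(CPM + 1). Hoxa5 is the highest cell in both panels, at 506 and 184 CPM, and cluster C is at or near 0 throughout.

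Hoxa5, Hoxb5 and Hoxb4 were the 3 members with more than 10 counts in all 8 libraries. Together they made up 91.6% ± 4.67 of all Hox counts in controls and 86.3% ± 16.4 in hypoxic Sox17-deleted libraries (SD, n = 4). Hoxa5 alone took 56.7% to 76.9% in controls and 36.8% to 74.4% in hypoxic Sox17-deleted libraries. By mean level Hoxa5 ranked 301 of 23238 symbols in controls and 1149 in hypoxic Sox17-deleted libraries. Hoxb5 ranked 1632 and 2714, and Hoxb4 2885 and 2731.

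All 39 members summed to 708, 790, 701 and 857 CPM in the controls and to 556, 290, 213 and 517 CPM in the hypoxic Sox17-deleted libraries. The means were 764 ± 74.1 and 394 ± 168 CPM (SD, n = 4), and each hypoxic Sox17-deleted library lay below each control. Hoxa5 accounted for 323 CPM of the 370 CPM between the means. Without Hoxa5 the sums were 258 ± 45.5 and 210 ± 128 CPM, and the groups overlapped. Cluster A was at 548 ± 110 and 189 ± 53.1 CPM with no overlap, whereas cluster B was at 214 ± 33.3 and 175 ± 103 CPM with overlap. Paralogue group 5 held 633 ± 98.6 CPM in controls and 259 ± 119 CPM in hypoxic Sox17-deleted libraries, and paralogue group 4 held 73.1 ± 36.9 and 80.4 ± 56.3 CPM. These sums are descriptions and were not tested. In bulk RNA, fewer cells of a type and less RNA per cell cannot be told apart.

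**Figure D2:**
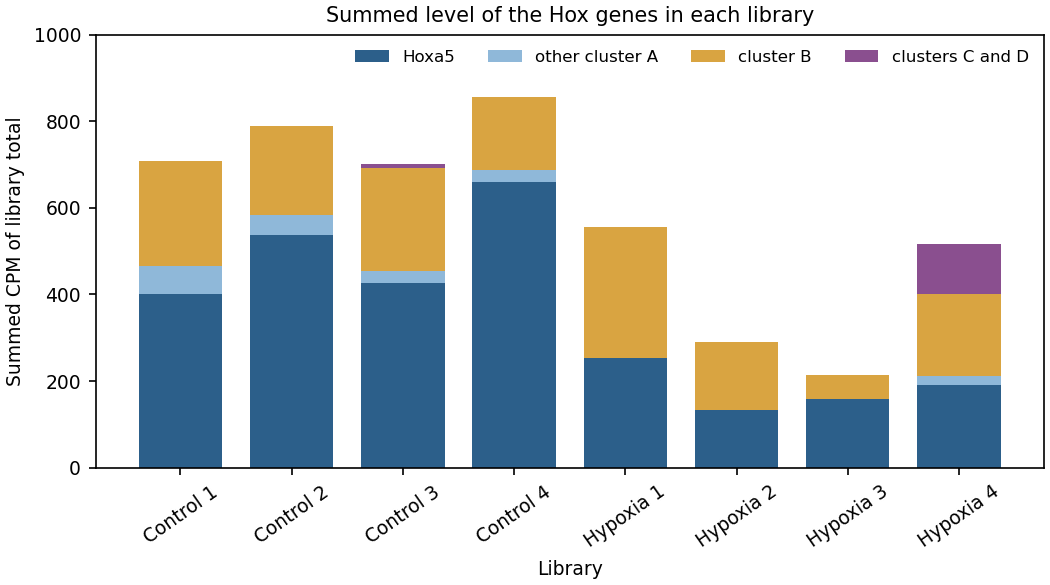
Summed CPM of library total of the Hox genes in each of the 8 libraries, stacked as Hoxa5, the rest of cluster A, cluster B, and clusters C and D. The controls reach 701 to 857 CPM and the hypoxic Sox17-deleted libraries 213 to 556 CPM, and Hypoxia 4 is the library with a large cluster D part, at 116 CPM.

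Only 5 members, Hoxa3, Hoxa5, Hoxb3, Hoxb4 and Hoxb5, had enough counts to pass the expression filter and enter the edgeR quasi-likelihood test, which ran over 8282 genes with Benjamini-Hochberg adjustment. None of the 5 had an adjusted p under 0.05, where 0% of all tested genes did. Sox17, the deleted gene, was not called either (log2 fold change −4.39, edgeR adjusted p = 0.346), so the lack of a call by this test does not show the lack of a change. Sox17 was called by DESeq2 (adjusted p = 0.0003) and by edgeR without the filter (adjusted p = 0.00538), but not by limma-voom (adjusted p = 0.121). At an unadjusted edgeR p under 0.05 there were 2 members, Hoxa3 and Hoxa5, both lower in hypoxic Sox17-deleted mice, where 5.12% of tested genes were past that threshold in either direction and 3.05% past it and lower. For the same 2 members the groups did not overlap, with the hypoxic Sox17-deleted libraries lower, as for 4.96% of tested genes, and no member was higher without overlap, as 1.63% of tested genes were. DESeq2, run as an alternative, called 2 of the 7 members to which it gave an adjusted p, again Hoxa3 and Hoxa5, where it called 3.74% of 9352 genes as lower. Limma-voom called 0 of the 5, where it called 0.531% of genes. EdgeR without the filter called 0 of the 19 members with a count, where it called 0.121% of genes, and 4 of the 19 (Hoxa3, Hoxa5, Hoxb7 and Hoxd8) had an unadjusted p under 0.05, as 11.4% of genes did. Hoxa3 passed the filter through the control libraries alone and so had to differ. Of the 5 tested members, 3 were lower and 2 higher, beside 50.4% of all tested genes lower, and their median log2 fold change was −0.71 beside −0.01 over all tested genes. That median includes Hoxa3 and turned with the setting: it was 0.15 with DESeq2 and −0.01 with edgeR without the filter, both over 19 members, and −2.16 without hypoxic Sox17-deleted library 2.

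Hoxa5 (ENSMUSG00000038253.6; chromosome 6, 52201754 to 52204587, minus strand) encodes the paralogue group 5 factor needed for airway and alveolar development. Its counts were 4241, 5951, 4976 and 7833 in controls and 3257, 1260, 1111 and 2123 in hypoxic Sox17-deleted libraries. On the scale of library totals these were 401, 538, 428 and 659 CPM against 252, 133, 159 and 190 CPM. Every hypoxic Sox17-deleted library was below every control. The group means were 506 ± 118 and 184 ± 51.3 CPM (SD, n = 4). The fitted log2 fold change of Hoxa5 was −1.44 (SE 0.36), with an edgeR unadjusted p of 0.00139 and an adjusted p of 0.346. DESeq2 gave −1.35 and an adjusted p of 0.00287. Over the 19 alternatives the adjusted p of Hoxa5 ran from 0.00287 to 0.764 and was under 0.05 with DESeq2 alone, while the fold change stayed between −1.61 and −1.27. No exon of another gene overlapped Hoxa5 in GENCODE M21.

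Set against endothelial markers in place of the library total, Hoxa5 had 50.1, 69.9, 52.7 and 84.9 counts for every 1000 endothelial marker counts in controls. The hypoxic Sox17-deleted libraries had 28.5, 16.5, 17.0 and 33.6, again all below the controls. This scaling was chosen after the data were seen. For all Hox members together it gave 86.4 to 110 in controls and 22.8 to 91.3 in hypoxic Sox17-deleted libraries, which overlapped. Lung fibroblasts also transcribe Hoxa5. The 10 fibroblast markers summed to 596 to 753 CPM in controls and 793 to 9156 CPM in hypoxic Sox17-deleted libraries, a gap that rested on Gsn. Without Gsn the sums were 272 to 466 and 137 to 1131 CPM and overlapped, and of the 8 fibroblast markers tested 3 were lower and 5 higher. The median log2 fold change of the 8 was 1.37. All 10 had counts in some library, but Lum never exceeded 1 count. Tcf21, a defining lung fibroblast gene, had 0, 0, 373 and 18 counts in controls and 0 in each hypoxic Sox17-deleted library. Pdgfra, another fibroblast gene, had 1, 49, 2 and 79 counts in controls. In hypoxic Sox17-deleted libraries Pdgfra had 620, 20, 0 and 353 counts, so it was higher in libraries 1 and 4. The epithelial marker sums, like the sum of all 10 fibroblast markers, were higher without overlap, those of alveolar type 2 cells at 882 to 1201 and 1923 to 3845 CPM in turn. The part of such cells in the level of Hoxa5 was not tested.

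The promoters of Hoxa5 and Hoxb4 are shown because Hoxa5 was lower in each hypoxic Sox17-deleted library and Hoxb4, detected in all 8 libraries, was not. The sequences are the 250 bases before the RefSeq start on GRCm38.p6, written 5′ to 3′ on the gene's strand, at chr6:52204588-52204837 (minus strand) for Hoxa5 and chr11:96318017-96318266 (plus strand) for Hoxb4. Capitals mark matches to ACAAT, the core that SOX factors bind, to ACGTG, the core of the hypoxia response element, or to TGATNNAT, a site of PBX-HOX pairs, each searched on both strands.
Hoxa5: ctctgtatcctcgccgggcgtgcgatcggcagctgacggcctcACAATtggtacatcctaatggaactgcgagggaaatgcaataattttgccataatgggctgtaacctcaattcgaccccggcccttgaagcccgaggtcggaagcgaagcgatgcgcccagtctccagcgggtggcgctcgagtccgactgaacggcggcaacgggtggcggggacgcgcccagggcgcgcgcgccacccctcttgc
Hoxb4: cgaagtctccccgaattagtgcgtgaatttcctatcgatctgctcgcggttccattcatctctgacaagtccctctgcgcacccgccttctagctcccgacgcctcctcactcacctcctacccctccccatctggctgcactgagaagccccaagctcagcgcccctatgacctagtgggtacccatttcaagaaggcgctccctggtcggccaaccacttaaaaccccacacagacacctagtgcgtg
Hoxa5 had 1 match, to the SOX core, beginning 207 bases before the start, and Hoxb4 had none. Among 32851 RefSeq promoter windows of the same length, 27.7% held the SOX core, 16.6% the hypoxia response core and 7.68% the PBX-HOX site. Promoter entries were matched for 22 of the 39 members in 24 windows, of which 5 held the SOX core (Hoxa2, Hoxa3, Hoxa5, Hoxa7 and Hoxd8), 5 the hypoxia response core and 4 the PBX-HOX site. A match describes letters and does not show binding.

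Hoxb5 (chromosome 11, 96303336 to 96306121, plus strand) is the cluster B paralogue of Hoxa5 and is known to activate the VEGF receptor gene Kdr in endothelial precursors. It had 1179, 1496, 2033 and 1002 counts in controls and 2348, 365, 322 and 389 in hypoxic Sox17-deleted libraries. That is 112, 135, 175 and 84.3 CPM against 182, 38.6, 46.0 and 34.9 CPM. hypoxic Sox17-deleted library 1 was the highest of all 8 libraries, and the other 3 were below every control. The log2 fold change of Hoxb5 was −0.71 (SE 0.70, edgeR adjusted p = 1.00), and it was −1.60 (adjusted p = 0.423) without hypoxic Sox17-deleted library 1. An antisense gene, Hoxb5os, shares 100 bases of exon with Hoxb5 outside its last 500 bases and had 60 counts in control library 4 and 0 in the other 7.

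Hoxb4 (chromosome 11, 96318267 to 96321638, plus strand) encodes a paralogue group 4 factor known for expanding haematopoietic stem cells. Its counts were 1025, 771, 289 and 1009 in controls and 1520, 638, 41 and 1207 in hypoxic Sox17-deleted libraries. The means of 69.1 ± 31.6 and 74.8 ± 50.9 CPM (SD, n = 4) overlapped widely, and the lowest value in each group came from its library 3. The log2 fold change of Hoxb4 was 0.08 (SE 0.92, edgeR adjusted p = 1.00), and its sign turned when control library 3 or hypoxic Sox17-deleted library 1 or 4 was left out. The ratio of Hoxa5 to Hoxb4 counts within a library spanned 1.76 to 27.1, and that of Hoxb5 to Hoxb4 counts 0.322 to 7.85. Both highest ratios came from hypoxic Sox17-deleted library 3, where Hoxb4 had 41 counts. Such ratios were not examined for genes outside the Hox clusters, so their spread is not shown to be particular to Hox genes.

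Hoxa3 (chromosome 6, 52169062 to 52213336, minus strand), known for the development of organs from the pharyngeal arches, had 333, 392, 165 and 238 counts in controls and 0, 0, 0 and 1 in hypoxic Sox17-deleted libraries. The control mean was 25.3 ± 9.87 CPM (SD, n = 4), and all 4 hypoxic Sox17-deleted libraries were under the 3-count floor. From summed counts, 1128 against 1, the ratio of hypoxic Sox17-deleted to control level was 0.000988, with an exact 95% interval for counting error alone of 2.5e-05 to 0.00552. The edgeR unadjusted p was 0.0035 and the adjusted p 0.346. DESeq2 gave an adjusted p of 3.73e-07 and limma-voom one of 0.0593. As Hoxa3 passed the expression filter through the controls alone, these p-values are no independent support for a difference. These counts cannot be given to Hoxa3 alone. Hoxaas2, a noncoding gene on the opposite strand whose exon overlaps the 3′ end of Hoxa3 over 503 bases (chromosome 6, 52169062 to 52169564), had exactly the same count in each of the 8 libraries. Reads of the overlap appear to have been counted for both genes and, as the handling of strand is not stated, could belong to either. Of 11496 symbols with at least 100 counts in all, 180 (1.57%) shared all 8 counts with another symbol.

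The remaining abundant members of cluster A were seen in some libraries of a group and missing from others. Hoxa7, an axial patterning gene, had 140, 127, 0 and 90 counts in controls and 0, 0, 1 and 0 in hypoxic Sox17-deleted libraries. It did not pass the filter, and without one the edgeR unadjusted p of Hoxa7 was 0.102. The control counts of Hoxa7 summed to 357, and the ratio of levels was 0.00312. The exact 95% interval of that ratio for counting error alone was 7.88e-05 to 0.0175, which leaves out the spread between libraries. Hoxa2, which patterns the hindbrain, had 31, 0, 146 and 0 counts in controls and 1, 5, 0 and 0 in hypoxic Sox17-deleted libraries. Hoxa4, a gene of the cervical axis, had 171, 0, 0 and 0 counts in controls and 0, 1, 2 and 244 in hypoxic Sox17-deleted libraries. Each of these 3 genes thus had a control library at 0, and none of them separated the groups. At the 3′ end, exons of Hoxa4 and Hoxa7 overlap antisense genes in GENCODE M21. Hoxaas3, the antisense gene at Hoxa7, had 0 counts in every library.

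In cluster B, Hoxb2, a hindbrain patterning gene, had 231, 0, 439 and 0 counts in controls and 54, 0, 0 and 0 in hypoxic Sox17-deleted libraries. Hoxb3, a paralogue of Hoxa3, had 130, 0, 1 and 16 counts in controls and 0, 472, 14 and 0 in hypoxic Sox17-deleted libraries. Its log2 fold change of 1.82 (SE 2.66, edgeR adjusted p = 1.00) rested on hypoxic Sox17-deleted library 2 and was −2.16 without it. Both genes share exon sequence at their 3′ ends with the antisense gene Hoxb3os. Hoxb6, next to Hoxb5 on the chromosome, had 1 count in all.

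Among members of higher number, Hoxb7, Hoxd8 and Hoxd9 appeared in a single hypoxic Sox17-deleted library. In library 4, Hoxb7 had 502 counts, Hoxd8 844 and Hoxd9 454, or 44.98, 75.6 and 40.7 CPM. In the other 7 libraries Hoxb7 and Hoxd8 had 0 counts, and Hoxd9 had 105 in control library 3 and 0 elsewhere. Hoxd8 and Hoxd9 are neighbours in cluster D and Hoxb7 lies in cluster B; all are known from trunk and limb patterning. Members numbered 6 to 13 summed to 7.57 to 13.3 CPM in controls, to between 0 and 0.286 CPM in hypoxic Sox17-deleted libraries 1 to 3, and to 161 CPM in library 4. Library 4 had the lowest endothelial marker sum of all libraries (5658 CPM) and the highest fibroblast sum (9156 CPM). Gsn made up 8208 CPM of the latter; the other 9 fibroblast markers summed to 947 CPM in library 4, against 137 to 1131 CPM in the other hypoxic Sox17-deleted libraries and 272 to 466 CPM in controls. Smooth muscle and pericyte markers summed to 544 CPM in library 4 and 60.0 to 365 CPM elsewhere, but Myh11 gave 496 CPM of it. Without Myh11 library 4 had 48.5 CPM, below all controls. The part of such cells in these 3 genes was not tested.

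**Figure D3:**
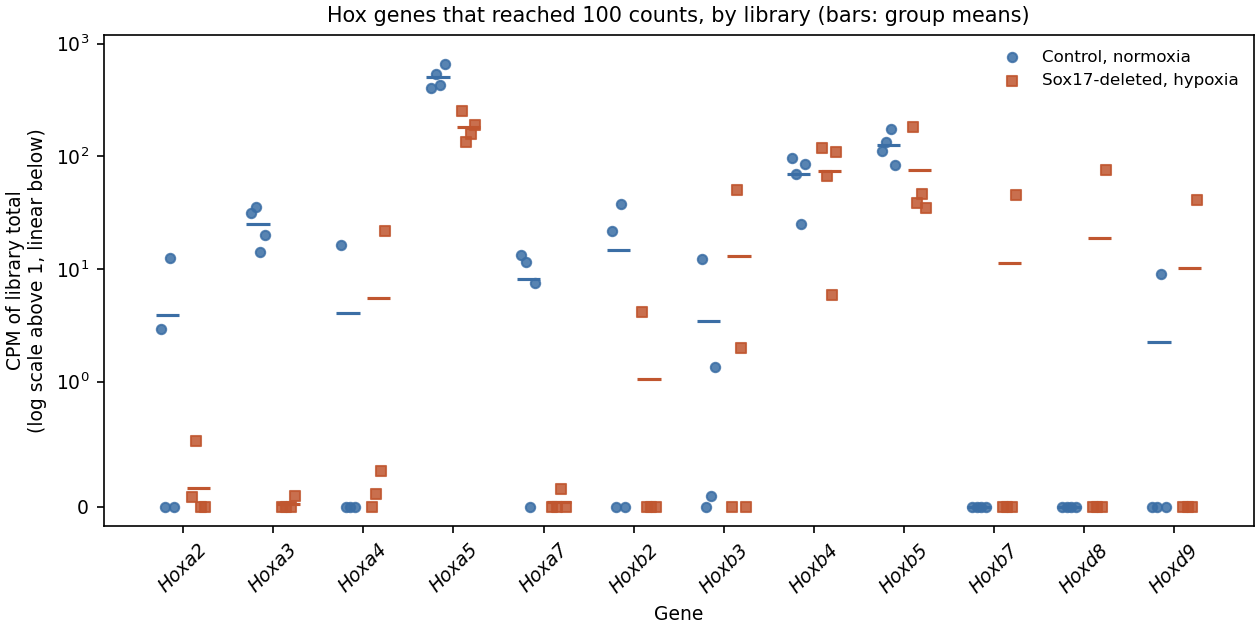
CPM of library total (log axis above 1, linear below) of the 12 Hox genes that reached 100 counts, with a point for each of the 4 control (circles) and 4 hypoxic Sox17-deleted (squares) libraries and bars at the group means. Hoxa3 and Hoxa5 are the genes whose groups do not overlap, and Hoxb7, Hoxd8 and Hoxd9 each have a single high hypoxic Sox17-deleted point.

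Seen in some libraries and absent from others was the usual pattern here. Of the 12 members that reached 100 counts in a library, 9 had 0 or 1 count in another, beside 64.6% of the 11378 genes that reached 100 counts. Members with at least 10 counts numbered 9, 5, 7 and 6 in controls and 4, 4, 4 and 7 in hypoxic Sox17-deleted libraries.

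**Figure D4:**
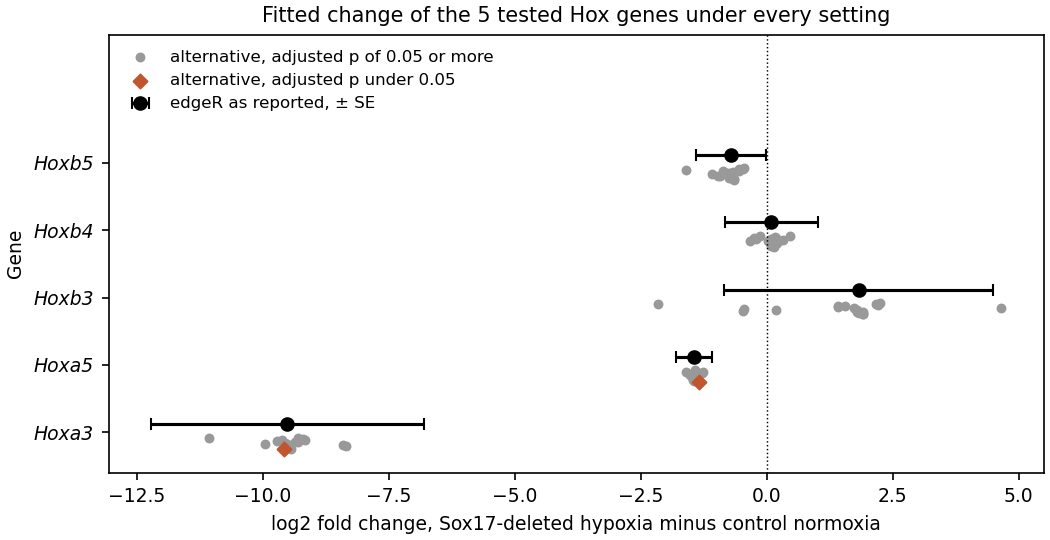
Log2 fold changes of the 5 tested Hox genes, hypoxic Sox17-deleted mice minus control, with the edgeR value and its SE in black and the alternatives as grey points or, where the adjusted p was under 0.05, as diamonds. Hoxa5 and Hoxa3 stay below 0 in all settings and each has a single diamond, from DESeq2, while the points of Hoxb3 and Hoxb4 lie on both sides of 0. The direction of Hoxa3, which passed the filter through the controls alone, could not turn.

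Genes that work with or control Hox genes were taken from lists of known function. Of them 0 passed the edgeR test after adjustment, as 0% of all tested genes did. Outside the noncoding genes, where Hoxaas2 repeats Hoxa3, 0 had an unadjusted edgeR p under 0.05, where 5.12% of all tested genes did. DESeq2 called 2 outside the noncoding genes, Ring1 and Itgav, both lower, where it called 3.74% of 9352 genes as lower. Both had counts in controls alone and could only come out lower, so these calls are no independent support for a difference. How many of the listed genes received a DESeq2 adjusted p is not reported here. TALE cofactors, homeodomain proteins that bind DNA together with HOX proteins, had 4 of 7 tested members lower and 3 higher. Among the most abundant, Pknox2 was at 158 ± 65.8 and 78.2 ± 112 CPM and Meis2 at 74.6 ± 21.6 and 77.8 ± 74.4 CPM in controls and hypoxic Sox17-deleted libraries in turn (SD, n = 4). The groups of both overlapped.

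Polycomb and trithorax genes, which keep Hox clusters silent or active, had 8 of 19 tested members lower and 11 higher. Phc2, of the repressive complex PRC1, was at 268 ± 63.4 and 279 ± 215 CPM. Kmt2a, the methyltransferase gene that keeps Hox genes active, was at 199 ± 84.9 and 327 ± 95.2 CPM (log2 fold change 0.77, SE 0.43, edgeR adjusted p = 1.00), and Men1, its partner, at 113 ± 43.9 and 81.8 ± 57.9 CPM. Ring1, another PRC1 gene, had 360, 113, 1 and 165 counts in controls and 0 in every hypoxic Sox17-deleted library. Ring1 did not pass the filter, and DESeq2 gave an adjusted p of 0.00547. With counts in controls alone Ring1 could only come out lower, so this p-value is no independent support for a difference.

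Retinoid genes, whose ligand switches on low-numbered Hox genes in the embryo, had 6 of 8 tested members lower and 2 higher. The retinoic acid receptor gene Rarg was at 179 ± 50.7 and 94.0 ± 39.2 CPM (log2 fold change −0.91, SE 0.52, edgeR adjusted p = 1.00). Its groups did not overlap, with the hypoxic Sox17-deleted libraries lower, as for 4.96% of all tested genes. Aldh1a1, which makes retinoic acid, was at 194 ± 63.5 and 304 ± 172 CPM, and Cyp26b1, which degrades it, at 219 ± 56.8 and 194 ± 136 CPM. The Cdx genes, which activate Hox clusters in the embryo, had 0 counts in all 8 libraries.

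Other homeobox genes had 4 of 5 tested members lower and 1 higher. Hopx stood at 304 ± 49.2 and 330 ± 147 CPM, and Meox1 at 43.6 ± 33.3 and 25.8 ± 30.7 CPM. Hhex, an endothelial and blood progenitor factor, had 340, 677, 389 and 582 counts in controls and 719, 41, 28 and 0 in hypoxic Sox17-deleted libraries, which overlapped through library 1. Of 9 noncoding genes of the clusters in the tables, 6 were at 0 in all libraries. Hotairm1, of cluster A, had 31.6 ± 11.8 and 24.3 ± 22.9 CPM, and its groups overlapped.

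Genes reported as targets of HOX factors in endothelium had 7 of 11 tested members lower and 4 higher, with a median log2 fold change of −0.23 beside −0.01 over all tested genes. The VEGF receptor gene Kdr was at 1089 ± 148 and 985 ± 415 CPM, the VE-cadherin gene Cdh5 at 755 ± 119 and 523 ± 80.5 CPM and the beta-catenin gene Ctnnb1 at 596 ± 69.4 and 610.0 ± 102 CPM. Cdh5 is the gene whose promoter drives the recombinase in both groups. Itgav, an integrin gene, had 435, 6, 219 and 23 counts in controls and 0 in every hypoxic Sox17-deleted library. It did not pass the filter, and DESeq2 gave it an adjusted p of 0.00287. As all counts of Itgav came from controls, it could only come out lower. This p-value is therefore no independent support for a difference.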

How the data were processed

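Ribosome-bound RNA was immunoprecipitated from lung by a tag on RPL22 and sequenced with a QuantSeq 3′ kit, per the labels' protocols. The authors deposited one table of raw counts by gene symbol for each library; Bowtie2, bedtools and mm10 are named in the submitters' processing notes, without versions. How strand and multiple matches were handled is not stated in the labels. The tables held 23238 symbols after 44 duplicate rows were summed. Nothing in the labels says that libraries came from separate animals, so p-values measure the spread between libraries, which may be partly technical. No 2 libraries agreed within sampling noise (smallest chi-square per degree of freedom 191).

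Counts of all genes were tested in R 4.3.3 with edgeR 4.0.16 (TMM factors of 0.898 to 1.06, filterByExpr, quasi-likelihood F test, group alone) and Benjamini-Hochberg adjustment at 0.05. The SE is the size of the fold change over the square root of F. The test was checked on simulated data, with a pass mark set only where the spread between libraries was low. The common dispersion of the real libraries, a measure of that spread, was 1.99, and the power of the test at that spread is not reported here. Alternatives used DESeq2 1.42.0, limma 3.58.1, other scalings and filters, and each library left out. CPM values are of the library total, with SD over 4 libraries; count intervals and the 3-count floor cover counting error only.

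Members with a mean of at least 10 CPM or 100 counts in a library are named, with the 3 most abundant members of each further list and any called by DESeq2; some items that fall under this rule are not reported here. Members and lists were chosen with earlier results of these data known.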

Additional observations from a re-analysis of the deposited data

Results flagged for a closer look

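Each group of 4 libraries was examined for a library set apart from the other 3 by more than Dixon's 95% critical value, for 12 named Hox genes and 4 sums, or 32 groups in all. Chance flags about 1 in 20 groups of continuous values, and 15 were set apart. That rate does not hold here: in 10 of the 15 the other 3 libraries were all at 0, so that any count set the library apart, and a group with 4 values of 0 could not be set apart.

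In hypoxic Sox17-deleted library 4, Hoxa4 (21.9 CPM), Hoxb7 (44.98 CPM), Hoxd8 (75.6 CPM), Hoxd9 (40.7 CPM) and the cluster D sum (116 CPM) stood above the other hypoxic Sox17-deleted libraries. Its Hoxa3 value of 0.0896 CPM, a single count, was set apart from 3 values of 0. In hypoxic Sox17-deleted library 1, Hoxb5 (182 CPM) and Hoxb2 (4.18 CPM) were the high values. Library 2 held the high value of Hoxb3 (49.96 CPM) and of Hoxa2 (0.529 CPM, 5 counts), and library 3 that of Hoxa7 (0.143 CPM, 1 count).

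Among controls, library 1 was set apart by Hoxa4 (16.2 CPM) and Hoxb3 (12.3 CPM), and library 3 by Hoxd9 and with it the cluster D sum (both 9.02 CPM). In no case was Hoxa5, Hoxb4, cluster A, cluster B or the sum over all members set apart.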

How the results depend on the processing

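Hoxa5 and Hoxb5 were lower in all 19 alternatives. So was Hoxa3, but it passed the filter through the controls alone and its direction could not turn. The log2 ratio of the summed Hox level (−0.96) ran from −1.17 to −0.75 over 12. DESeq2 called 2 members and 473 genes, with 9 members lower, 10 higher and a median of 0.15 over the 19 members with a count. Without a low-count filter edgeR had 10 lower, 9 higher, a median of −0.01 and 17 genes called. Limma-voom called 44 genes, limma-voom with quality weights 14 (1 member higher, Hoxb3 at −0.48) and robust edgeR 1. Requiring a mean of 10 CPM left 1 member higher.

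With the replicate block 5 members were lower and 0 higher, Hoxb3 was at −0.45 and Hoxb4 at −0.33, and 0 members were called. No label says what a replicate number shares. Over all tested genes, deviations from the group means correlated at r = −0.020 to 0.021 between same-numbered libraries. Such values cannot exclude a pairing that affects some genes. With a library left out, 3 to 6 members were lower and 1 to 2 higher, the median ran from −2.16 to −0.74, 0 to 5 genes were called, Hoxb3 ran from −2.16 to 4.65 and Hoxb4 from −0.25 to 0.46, and no member was called. The cause of these changes was not tested. Members with 2 counts or fewer lay under the 3-count floor in every library, where no difference was detectable at this depth.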
